A study of Mus musculus with 4 samples.

Results

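Cholesterol and fatty acids are both built from acetyl-CoA, by 2 sets of enzymes whose genes are controlled by the sterol regulatory element-binding proteins (SREBPs). The genes described here were a list of 31 genes of that system, chosen by their place in the pathway and with earlier results of these data known. The list has 21 genes in a sterol branch and 10 in a fatty acid branch. Of these, 30 had a probe set annotated to them alone among the 18193 genes measured, and for Acat2, the cytosolic acetoacetyl-CoA thiolase, only the promoter is used here. Where a gene had several probe sets, the brightest on average was used.

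Total RNA came from mouse melan-a melanocytes, an immortal pigment cell line, with 1 array for each of 4 cultures. Per the labels, every culture derived from Hmhi cells, had been grown with the phorbol ester TPA and cholera toxin, and was then kept in a starvation medium with dialyzed serum, whose listed components include neither agent. Hmhi-MYC-TA cells, Hmhi-Miz1 kd cells (also labelled Hmhi-pS-Miz1) and Hmhi cells received 100 ng/ml EGF in that medium over 14 days, and further Hmhi cells were starved for 14 days without EGF. What Hmhi and MYC-TA stand for is not given in the labels, which also do not say whether the derived lines are single clones and give no sequence for the knockdown construct. The arrays are called MYC-TA EGF, labelled Miz1 kd EGF, Hmhi EGF and Hmhi starved below.

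There were no replicates, so every difference compares 2 arrays and not the conditions, no test was possible and no p-value is given. Values are log2 signals with a median of 6.66 on each array, and a difference is on the log2 scale, so that 1 is 2-fold. The error available was technical, the SD between different probe sets of the same gene, which was 0.32 for Hmhi EGF minus Hmhi starved, 0.22 for labelled Miz1 kd EGF minus Hmhi EGF, 0.25 for MYC-TA EGF minus Hmhi EGF and 0.41 for MYC-TA EGF minus labelled Miz1 kd EGF. Zbtb17, which encodes Miz-1, read 8.71 in MYC-TA EGF, 9.07 in labelled Miz1 kd EGF, 8.72 in Hmhi EGF and 8.73 in Hmhi starved. It was not lower on the array labelled Miz1 kd, so all directions for that array are those of the array as labelled. Myc read 9.78 in MYC-TA EGF, 10.79 in labelled Miz1 kd EGF, 10.60 in Hmhi EGF and 10.64 in Hmhi starved. Of 8 melanocyte markers, 7 were at or above the median on all 4 arrays, the exception being Kit. Their summed level was 80.8 in MYC-TA EGF, 79.9 in labelled Miz1 kd EGF, 83.0 in Hmhi EGF and 82.4 in Hmhi starved. Single markers moved both ways, with Dct at 1.48, Pmel at 1.51 and Tyrp1 at -1.02 for Hmhi EGF minus Hmhi starved, and Dct at -2.07 and Tyrp1 at 0.73 for labelled Miz1 kd EGF minus Hmhi EGF. All 4 measured adipocyte markers, Adipoq, Cidec, Fabp4 and Lep, read below the median on all 4 arrays.

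In the sterol branch, acetyl-CoA is condensed to mevalonate, mevalonate is turned into farnesyl diphosphate, farnesyl units are joined to squalene, and squalene is cyclised to lanosterol and trimmed to cholesterol. In the fatty acid branch, acetyl-CoA is carboxylated, assembled into palmitate, elongated and desaturated. SREBP-2, encoded by Srebf2, acts mainly on the sterol genes, and SREBP-1, encoded by Srebf1, mainly on the fatty acid genes. INSIG proteins hold the SREBP precursor in the endoplasmic reticulum when sterols are plentiful, and in many cell types growth factor signalling raises SREBP activity.

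With EGF the branch medians lay on opposite sides of 0. In Hmhi EGF 14 of 20 sterol genes were lower than in starved cells and 6 were higher, with a branch median of -0.27, while 9 of 10 fatty acid genes were higher, with a branch median of 0.83. In the array labelled Miz1 kd 19 of 20 sterol genes and 8 of 10 fatty acid genes were lower than in Hmhi EGF. The medians were -0.52 for the sterol and -0.39 for the fatty acid branch. Of the 10 fatty acid genes 5 lay within the technical SD, where 5085 of all 11394 genes lay beyond it. The fatty acid median there depended on the probe sets and the level filter, from -0.96 with the second highest probe set to -0.12 with the mean of all sets. In MYC-TA EGF 16 of 20 sterol genes were lower than in Hmhi EGF, at a median of -0.50, and the fatty acid median was -0.03. With the second highest probe set, which left 11 sterol genes, the sterol median was -0.10 in this pair and -0.77 for Hmhi EGF minus Hmhi starved. Fads2, the desaturase that starts the synthesis of long polyunsaturated fatty acids, spanned the widest range of any member, at 10.60 in MYC-TA EGF, 5.71 in labelled Miz1 kd EGF, 9.40 in Hmhi EGF and 8.47 in Hmhi starved.

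**Figure D1:**
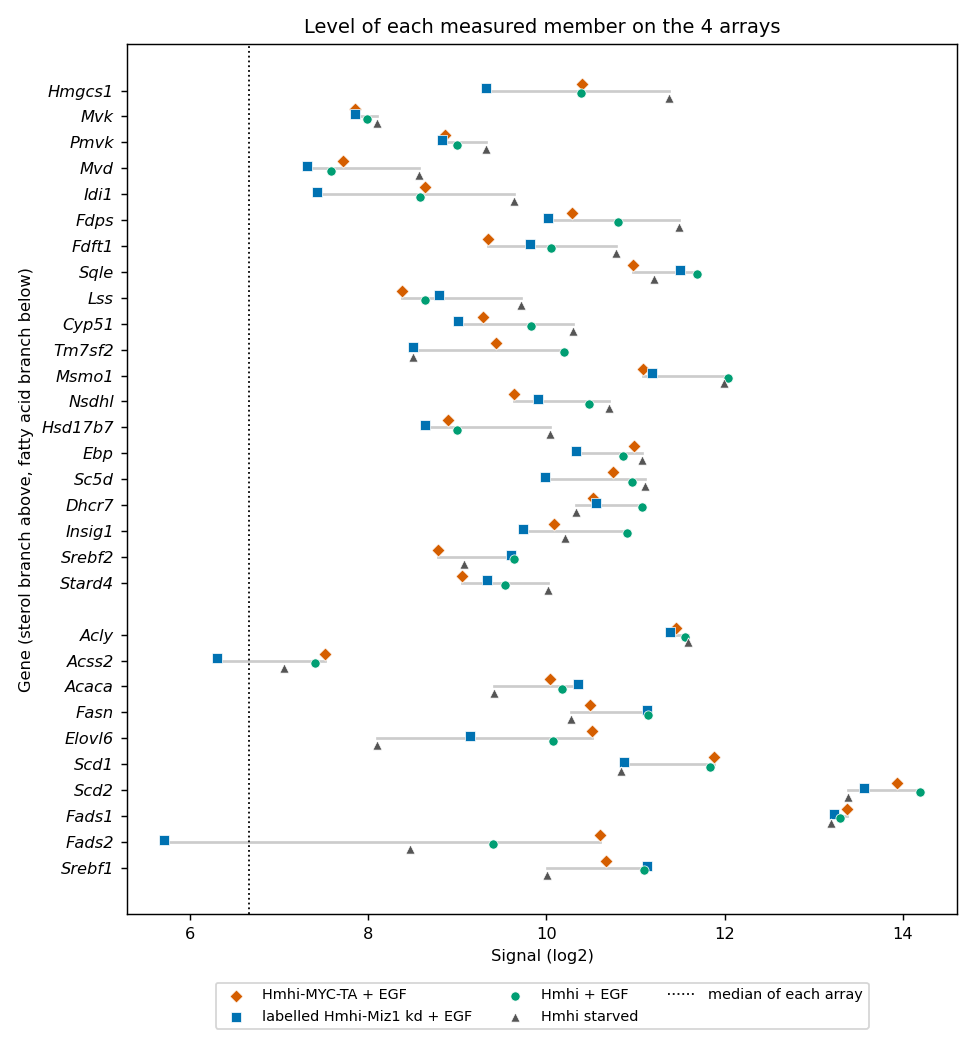
Level of the 30 measured members on the 4 arrays, 1 point per array, on a log2 signal axis, with the sterol branch above and the fatty acid branch below. In the sterol branch 14 of 20 genes were highest in Hmhi starved (triangles), while in the fatty acid branch 7 of 10 were lowest there. The dotted line is the array median of 6.66.

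The promoters of 6 members are shown because these genes carry the differences described below and lie in both branches. Each is the stretch of 250 bases before the annotated transcript start in RefSeq, build GRCm38.p6, written 5′ to 3′ on the strand of the gene in lower case. Capitals mark matches on either strand to TCACNCCAC, the core of the sterol regulatory element, to the CCAAT box bound by the factor NF-Y, which reads ATTGG on the other strand, and to the E-box CACGTG. Hmgcs1 is at chr13:119690101-119690350 on the plus strand, Idi1 at chr13:8885356-8885605 on the plus strand and Insig1 at chr5:28071162-28071411 on the plus strand. Tm7sf2 is at chr19:6067851-6068100 on the minus strand, Elovl6 at chr3:129532136-129532385 on the plus strand and Fads2 at chr19:10101504-10101753 on the minus strand.
Hmgcs1: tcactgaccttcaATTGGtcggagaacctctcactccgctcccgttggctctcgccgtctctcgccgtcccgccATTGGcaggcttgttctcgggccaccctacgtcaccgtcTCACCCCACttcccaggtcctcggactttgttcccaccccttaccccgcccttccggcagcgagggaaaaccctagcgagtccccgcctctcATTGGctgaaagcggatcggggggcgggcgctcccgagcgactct
Idi1: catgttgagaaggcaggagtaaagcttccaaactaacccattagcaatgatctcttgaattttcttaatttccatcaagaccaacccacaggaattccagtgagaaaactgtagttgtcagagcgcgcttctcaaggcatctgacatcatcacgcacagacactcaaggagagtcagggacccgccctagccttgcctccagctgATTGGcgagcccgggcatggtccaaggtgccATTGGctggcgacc
Insig1: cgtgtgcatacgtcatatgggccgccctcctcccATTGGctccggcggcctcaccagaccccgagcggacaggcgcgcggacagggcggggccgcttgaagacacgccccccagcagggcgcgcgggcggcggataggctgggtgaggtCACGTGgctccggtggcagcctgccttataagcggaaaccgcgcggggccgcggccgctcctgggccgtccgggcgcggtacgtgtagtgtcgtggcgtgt
Tm7sf2: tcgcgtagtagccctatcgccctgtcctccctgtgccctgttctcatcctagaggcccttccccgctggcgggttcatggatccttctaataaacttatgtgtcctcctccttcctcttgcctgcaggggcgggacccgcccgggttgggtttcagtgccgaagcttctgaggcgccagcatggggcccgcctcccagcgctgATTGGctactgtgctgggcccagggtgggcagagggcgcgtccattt
Elovl6: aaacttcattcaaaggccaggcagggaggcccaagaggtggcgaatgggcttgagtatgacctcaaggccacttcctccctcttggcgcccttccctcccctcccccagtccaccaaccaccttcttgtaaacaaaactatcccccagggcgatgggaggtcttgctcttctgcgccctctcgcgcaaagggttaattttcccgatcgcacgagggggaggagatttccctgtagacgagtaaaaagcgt
Fads2: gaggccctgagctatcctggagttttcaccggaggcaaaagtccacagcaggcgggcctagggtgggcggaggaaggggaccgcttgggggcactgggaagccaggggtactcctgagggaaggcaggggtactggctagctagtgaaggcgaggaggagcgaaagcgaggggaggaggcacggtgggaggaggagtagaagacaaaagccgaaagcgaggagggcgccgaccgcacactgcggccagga

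RefSeq windows of 300 bases, 250 before and 50 after the start, were given for 24 of the 31 members, Acat2 among them, as 29 windows. A CCAAT box lay in 16 of 20 sterol branch windows and in 5 of 9 fatty acid branch windows, against 37.4% of all 32851 windows. GGGCGG, the GC box, lay on either strand in 17 of 20 sterol branch windows and 5 of 9 fatty acid branch windows, against 35.7% of all windows. An E-box was found in 4 of 20 sterol branch windows, those of Hsd17b7, Sc5d, Insig1 and 1 of 3 starts of Dhcr7, and in 0 of 9 fatty acid branch windows, against 7.15% of all windows. TCACNCCAC was found in 1 of 20 sterol branch windows, that of Hmgcs1, and in 0 of 9 fatty acid branch windows, against 1.24% of all windows. The printed stretches of Elovl6 and Fads2 hold none of the 3 capitalised motifs. Such matches are letters in a window and not shown sites, and a missing match says only that these letters are absent from that window.

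**Figure D2:**
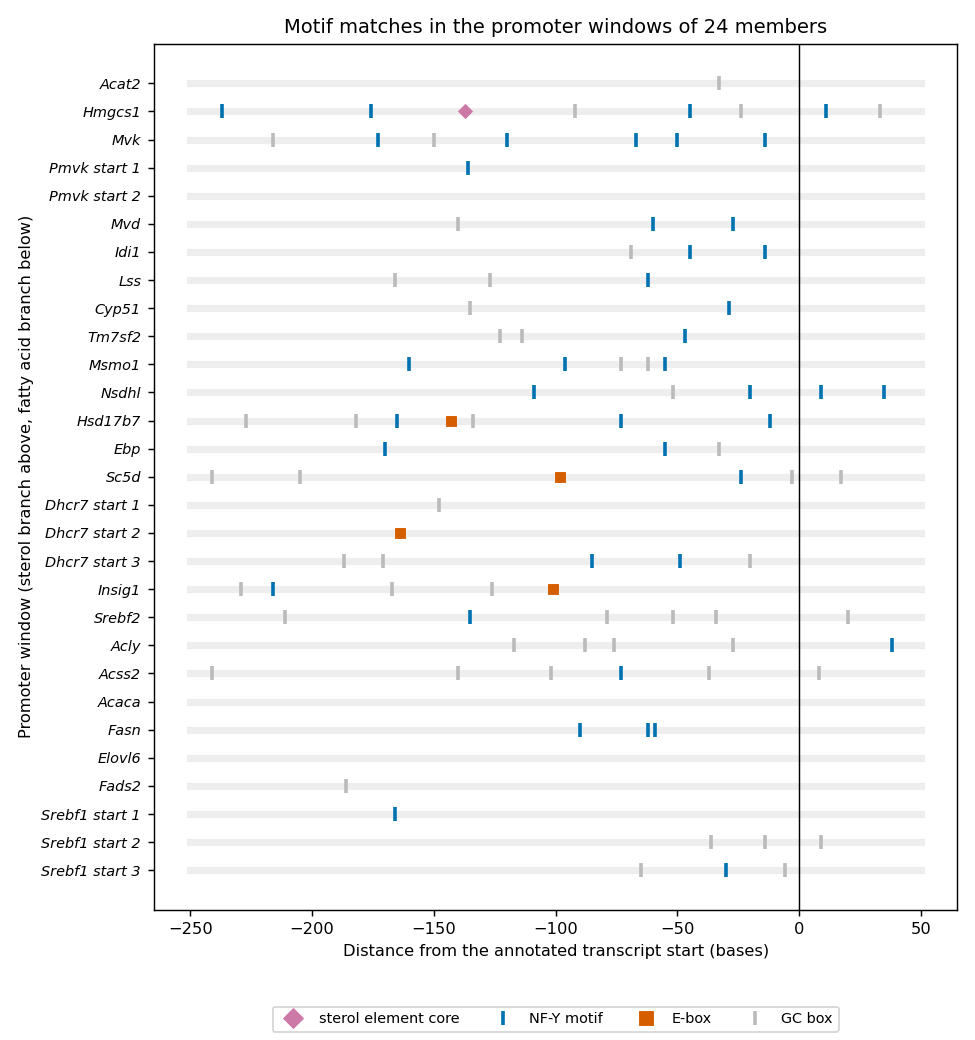
Start positions of motif matches in the 29 promoter windows of 24 members, plotted as distance in bases from the annotated transcript start. Blue ticks are CCAAT boxes (the NF-Y motif), grey ticks GC boxes, squares E-boxes and the diamond the sterol element core. A CCAAT box appears in 16 of 20 sterol branch windows and 5 of 9 fatty acid branch windows.

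The mevalonate enzymes were lower in Hmhi EGF than in Hmhi starved in 6 of 6 measured genes, with a median of -0.84. Hmgcs1, the HMG-CoA synthase whose promoter holds the sterol element core, read 10.40 in MYC-TA EGF, 9.32 in labelled Miz1 kd EGF, 10.38 in Hmhi EGF and 11.38 in Hmhi starved. It was highest in Hmhi starved, alike in MYC-TA EGF and Hmhi EGF, and lowest on the array labelled Miz1 kd. Idi1, which isomerises isopentenyl diphosphate, read 8.63 in MYC-TA EGF, 7.43 in labelled Miz1 kd EGF, 8.58 in Hmhi EGF and 9.63 in Hmhi starved. The order was that of Hmgcs1, with a difference of -1.05 for Hmhi EGF minus Hmhi starved and -1.15 for labelled Miz1 kd EGF minus Hmhi EGF. Mvd, the mevalonate diphosphate decarboxylase, read 7.71 in MYC-TA EGF, 7.31 in labelled Miz1 kd EGF, 7.58 in Hmhi EGF and 8.57 in Hmhi starved. It too was highest in Hmhi starved, and it lay 1.99-fold lower in Hmhi EGF.

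Fdps, the farnesyl diphosphate synthase, read 10.29 in MYC-TA EGF, 10.02 in labelled Miz1 kd EGF, 10.80 in Hmhi EGF and 11.49 in Hmhi starved. All 3 arrays with EGF lay below Hmhi starved, and Hmhi EGF was the highest of the 3. The kinases of mevalonate differed little. Mvk, mevalonate kinase, read 7.86 in MYC-TA EGF, 7.85 in labelled Miz1 kd EGF, 7.99 in Hmhi EGF and 8.10 in Hmhi starved. Pmvk, phosphomevalonate kinase, read 8.86 in MYC-TA EGF, 8.83 in labelled Miz1 kd EGF, 8.99 in Hmhi EGF and 9.32 in Hmhi starved. Hmhi starved was the highest array for both kinases, and among the 3 arrays with EGF neither gene varied by more than the technical SD of any pair.

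Of the enzymes that make and cyclise squalene, Fdft1 and Lss were lower with EGF and Sqle was higher. Fdft1, the squalene synthase, read 9.35 in MYC-TA EGF, 9.82 in labelled Miz1 kd EGF, 10.06 in Hmhi EGF and 10.78 in Hmhi starved. It was highest in Hmhi starved and lowest in MYC-TA EGF. Sqle, the squalene epoxidase, a control point of the pathway after mevalonate, read 10.97 in MYC-TA EGF, 11.50 in labelled Miz1 kd EGF, 11.69 in Hmhi EGF and 11.20 in Hmhi starved. Its array with the highest level was Hmhi EGF, and MYC-TA EGF was the lowest. Lss, the lanosterol synthase, read 8.38 in MYC-TA EGF, 8.79 in labelled Miz1 kd EGF, 8.64 in Hmhi EGF and 9.72 in Hmhi starved. Hmhi starved stood apart from the 3 arrays with EGF, and the difference of -1.08 for Hmhi EGF minus Hmhi starved was the most negative of all members in that comparison.

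The enzymes between lanosterol and cholesterol lay on both sides of 0 with EGF, 3 of 8 higher and 5 lower. Tm7sf2, a sterol C14 reductase, read 9.43 in MYC-TA EGF, 8.51 in labelled Miz1 kd EGF, 10.20 in Hmhi EGF and 8.50 in Hmhi starved. It was 3.23-fold higher in Hmhi EGF than in starved Hmhi cells and 3.22-fold lower in labelled Miz1 kd EGF than in Hmhi EGF, which left labelled Miz1 kd EGF 0.004 from Hmhi starved. Hsd17b7, a sterol ketone reductase, read 8.90 in MYC-TA EGF, 8.64 in labelled Miz1 kd EGF, 8.996 in Hmhi EGF and 10.04 in Hmhi starved. Hmhi starved was the high array and labelled Miz1 kd EGF the low one. For labelled Miz1 kd EGF minus Hmhi EGF its difference was -0.35 on this probe set, beyond the technical SD, and -0.22 and -0.01 on its other sets past the filter.

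Cyp51, the lanosterol demethylase, read 9.29 in MYC-TA EGF, 9.01 in labelled Miz1 kd EGF, 9.82 in Hmhi EGF and 10.29 in Hmhi starved. Msmo1, the sterol methyl oxidase, read 11.08 in MYC-TA EGF, 11.18 in labelled Miz1 kd EGF, 12.04 in Hmhi EGF and 11.99 in Hmhi starved. Nsdhl, the sterol dehydrogenase that acts with Msmo1, read 9.63 in MYC-TA EGF, 9.91 in labelled Miz1 kd EGF, 10.48 in Hmhi EGF and 10.70 in Hmhi starved. For all 3 genes both derived lines were lower than Hmhi EGF, and for Msmo1 Hmhi EGF and Hmhi starved were alike. Msmo1 had the most negative difference of all members for MYC-TA EGF minus Hmhi EGF, -0.96.

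Ebp, a sterol isomerase, read 10.98 in MYC-TA EGF, 10.33 in labelled Miz1 kd EGF, 10.86 in Hmhi EGF and 11.07 in Hmhi starved. Sc5d, a sterol desaturase, read 10.75 in MYC-TA EGF, 9.98 in labelled Miz1 kd EGF, 10.96 in Hmhi EGF and 11.11 in Hmhi starved. Both were lowest on the array labelled Miz1 kd, and the other 3 arrays spanned 0.21 for Ebp and 0.36 for Sc5d. Dhcr7, which makes cholesterol from 7-dehydrocholesterol, read 10.52 in MYC-TA EGF, 10.55 in labelled Miz1 kd EGF, 11.07 in Hmhi EGF and 10.33 in Hmhi starved. Hmhi EGF was its high array, and the other 3 spanned 0.22.

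Among the genes that control or carry sterols, Insig1 and Srebf2 were higher with EGF and Stard4 was lower, none of them by 2-fold. Insig1, itself a target of SREBPs, read 10.08 in MYC-TA EGF, 9.74 in labelled Miz1 kd EGF, 10.91 in Hmhi EGF and 10.20 in Hmhi starved. Hmhi EGF was its high array, and labelled Miz1 kd EGF was 2.25-fold lower. Srebf2 read 8.79 in MYC-TA EGF, 9.60 in labelled Miz1 kd EGF, 9.63 in Hmhi EGF and 9.08 in Hmhi starved. Labelled Miz1 kd EGF and Hmhi EGF differed by -0.03, and MYC-TA EGF was lower than Hmhi EGF by 0.84 on this probe set and by 0.03 on the other. Stard4, a sterol transfer protein, read 9.05 in MYC-TA EGF, 9.34 in labelled Miz1 kd EGF, 9.54 in Hmhi EGF and 10.02 in Hmhi starved, in an order like that of Fdft1.

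In the fatty acid branch, of the enzymes that supply acetyl-CoA, Acly differed by -0.03 with EGF and Acss2 by 0.35, just beyond the technical SD of 0.32. Acly, the ATP citrate lyase, read 11.45 in MYC-TA EGF, 11.39 in labelled Miz1 kd EGF, 11.55 in Hmhi EGF and 11.58 in Hmhi starved. The 4 arrays spanned 0.19. Acss2, the acetyl-CoA synthetase that uses acetate, read 7.51 in MYC-TA EGF, 6.31 in labelled Miz1 kd EGF, 7.40 in Hmhi EGF and 7.05 in Hmhi starved. It was 2.13-fold lower in labelled Miz1 kd EGF than in Hmhi EGF. It read below the array median in labelled Miz1 kd EGF, so that background limits the size of this difference.

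The enzymes that assemble and extend the chain were all higher with EGF. Acaca, acetyl-CoA carboxylase, read 10.04 in MYC-TA EGF, 10.36 in labelled Miz1 kd EGF, 10.17 in Hmhi EGF and 9.41 in Hmhi starved. Fasn, fatty acid synthase, read 10.49 in MYC-TA EGF, 11.13 in labelled Miz1 kd EGF, 11.13 in Hmhi EGF and 10.27 in Hmhi starved. Both were low in Hmhi starved and alike in labelled Miz1 kd EGF and Hmhi EGF, and Fasn was lower in MYC-TA EGF. Elovl6, which extends palmitate, read 10.51 in MYC-TA EGF, 9.15 in labelled Miz1 kd EGF, 10.07 in Hmhi EGF and 8.09 in Hmhi starved. It was 3.93-fold higher in Hmhi EGF than in starved Hmhi cells, the largest difference of a member in that comparison, and rank 232 from the top among 11461 genes.

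The desaturases set the number and place of double bonds. Scd1, a stearoyl-CoA desaturase that makes monounsaturated fatty acids, read 11.88 in MYC-TA EGF, 10.87 in labelled Miz1 kd EGF, 11.84 in Hmhi EGF and 10.83 in Hmhi starved. On this probe set MYC-TA EGF and Hmhi EGF were alike and high, and labelled Miz1 kd EGF was as low as Hmhi starved. A second, dimmer Scd1 probe set read 8.39 in MYC-TA EGF, 6.75 in labelled Miz1 kd EGF, 7.72 in Hmhi EGF and 7.11 in Hmhi starved. Scd2, the paralogue of Scd1, read 13.93 in MYC-TA EGF, 13.57 in labelled Miz1 kd EGF, 14.19 in Hmhi EGF and 13.39 in Hmhi starved. It had the same 2 high arrays and the same 2 low arrays, over a smaller range. Scd1 and Scd2 are close paralogues, so their probe sets may share signal.

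Fads2 was higher by 0.93 in Hmhi EGF than in starved Hmhi cells, short of 2-fold. It was 12.9-fold lower in labelled Miz1 kd EGF than in Hmhi EGF and 2.29-fold higher in MYC-TA EGF than in Hmhi EGF. Its difference of -3.69 ranked 15 from the bottom among 11394 genes, and the 4.88 between MYC-TA EGF and labelled Miz1 kd EGF ranked 8 from the top among 11613. The probe set read below the array median in labelled Miz1 kd EGF, where background limits the size of the difference. The other probe sets gave -1.86 and -2.14 for labelled Miz1 kd EGF minus Hmhi EGF, which agree in sign but not in size. Fads1, the neighbouring desaturase that acts later in the same pathway, read 13.37 in MYC-TA EGF, 13.22 in labelled Miz1 kd EGF, 13.30 in Hmhi EGF and 13.20 in Hmhi starved. Its 4 arrays spanned 0.17, so that Fads1 and Fads2 were unlike on these arrays. A second, dimmer Fads1 probe set gave 0.51 for labelled Miz1 kd EGF minus Hmhi EGF and -0.76 for MYC-TA EGF minus Hmhi EGF.

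Srebf1 read 10.67 in MYC-TA EGF, 11.12 in labelled Miz1 kd EGF, 11.09 in Hmhi EGF and 10.01 in Hmhi starved. It was 2.12-fold higher in Hmhi EGF than in starved Hmhi cells, alike in labelled Miz1 kd EGF and Hmhi EGF, and between these levels in MYC-TA EGF.

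**Figure D3:**
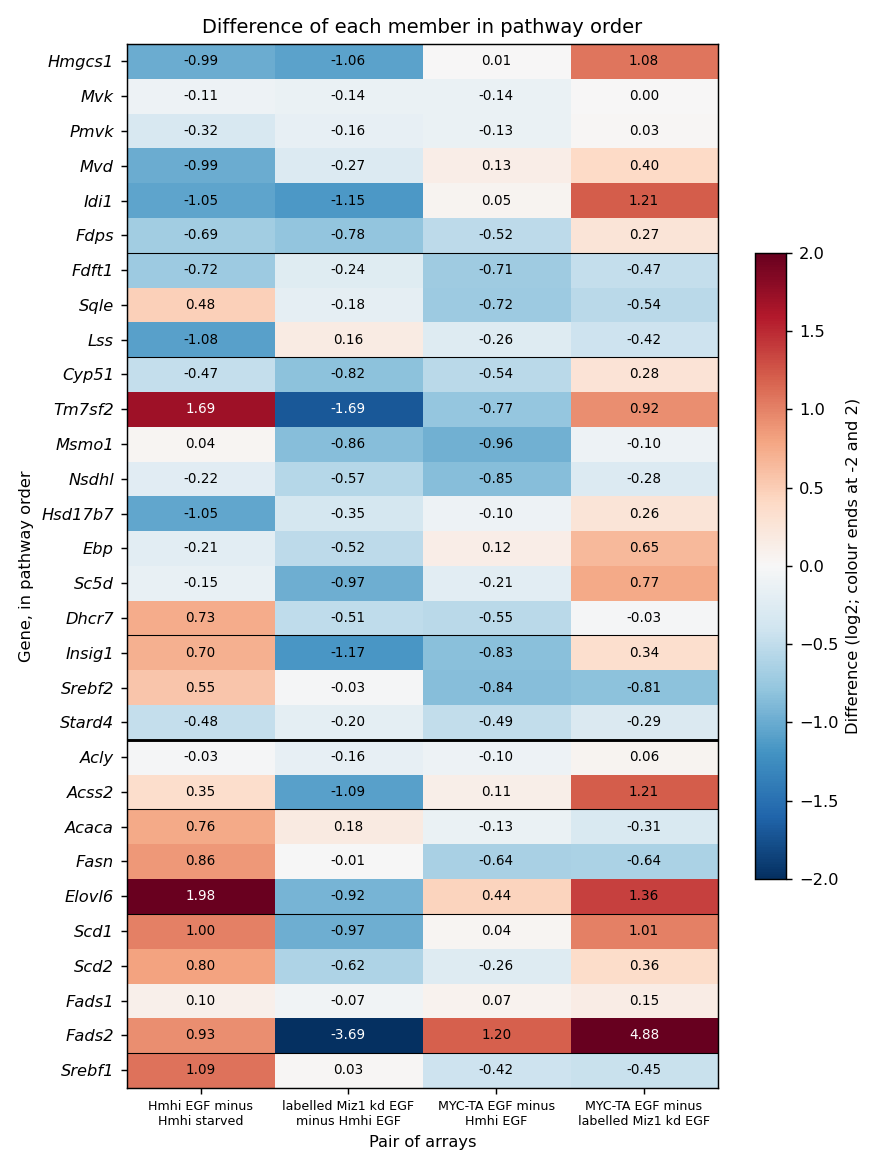
Difference on the log2 scale of each of the 30 members for the 4 pairs of arrays, in pathway order, with a heavy line between the sterol branch and the fatty acid branch and thin lines between steps. The EGF column is blue for the 6 mevalonate genes and red for the genes from Acaca to Scd2, and the column of the array labelled Miz1 kd is blue for 27 of 30 members.

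Hmhi EGF was compared with Hmhi starved to ask how lipid synthesis genes stood after 14 days of EGF. A difference of 2-fold or more was seen for 7 members, of which Elovl6, Tm7sf2, Srebf1 and Scd1 were higher and Lss, Idi1 and Hsd17b7 lower. Scd1 lay just inside the threshold at 1.004, and Hmgcs1 at -0.99 and Mvd at -0.99 lay just outside it. Of the sterol genes 1 of 20 passed 2-fold upward and 3 downward, and of the fatty acid genes 3 of 10 passed it upward and 0 downward. All 30 members passed the level filter, a signal at or above the array median on the brighter array, in each of the 4 pairs. Of all 11461 genes past it, 7.98% were higher by this threshold and 4.96% lower. By sign, 14 of 20 sterol genes were lower and 9 of 10 fatty acid genes were higher, the exception being Acly, where 50.5% of all genes were higher and 49.4% lower.

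The branch medians in this pair of arrays differed by -1.10, sterol minus fatty acid, and the median of all genes was 0.01. Differences beyond the technical SD of 0.32 were seen for 15 of 20 sterol genes, of which 10 were lower and 5 higher. They were also seen for 8 of 10 fatty acid genes, all higher. Of all 11461 genes 6083 lay beyond this SD, 3184 of them higher and 2899 lower. The 5 higher sterol genes were Sqle, Tm7sf2, Dhcr7, Insig1 and Srebf2. Srebf2 was at 0.55 on the probe set used and at 0.18, within the technical SD, on its other set. In the sterol branch 14 of 20 genes were highest in Hmhi starved of all 4 arrays, against 30.4% of 11775 genes. In the fatty acid branch 7 of 10 were lowest there, against 34.8% of 11772 genes. In the sterol branch the array labelled Miz1 kd held the lowest value for 11 of 20 genes, against 28.2% of those 11772 genes. Of 4 macrophage markers, Csf1r differed by -2.66 and Cd68 by 1.52 in this pair, while Ptprc and Adgre1 were below the median on all 4 arrays. The summed level of the 4 was 24.9 in MYC-TA EGF, 25.3 in labelled Miz1 kd EGF, 24.7 in Hmhi EGF and 25.7 in Hmhi starved. Of 6 fibroblast markers, Dcn differed by -1.16 and Col1a2 by -0.55 with EGF, while Pdgfra differed by 0.81 and Col3a1 by 0.62. Col1a1 and Lum were below the median on all 4 arrays. The summed level of the 6 was 43.4 in Hmhi EGF and 43.6 in Hmhi starved. The part of these markers in the result was not tested. RNA came from whole cultures, so fewer cells that express a gene and less RNA per cell cannot be told apart.

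**Figure D4:**
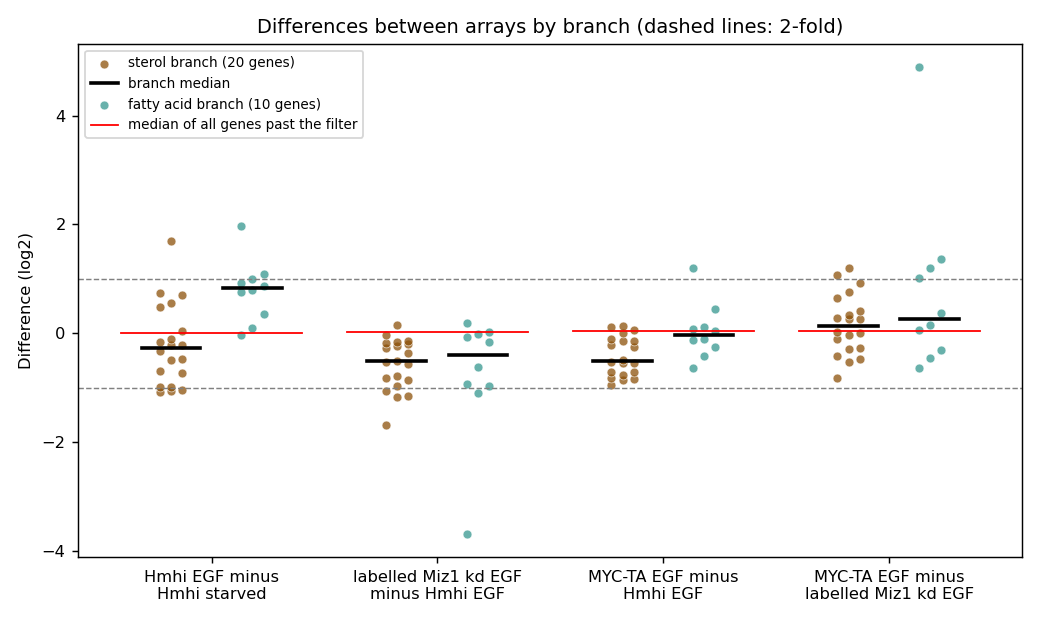
Difference of each member on the log2 scale for the 4 pairs of arrays, 1 point per gene, with the branch median as a black bar, the median of all genes past the filter as a red line and 2-fold as dashed lines. For Hmhi EGF minus Hmhi starved the sterol median is -0.27 and the fatty acid median 0.83, and the lowest point of the plot is Fads2 at -3.69 for labelled Miz1 kd EGF minus Hmhi EGF.

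The second pair, labelled Miz1 kd EGF and Hmhi EGF, shows how these genes stood in the line with the knockdown construct. Of the 30 members, 27 were lower, where 47.5% of all 11394 genes were lower and 52.3% higher, and the 3 others, Lss, Acaca and Srebf1, were higher by at most 0.18. Fads2, Tm7sf2, Insig1, Idi1, Acss2 and Hmgcs1 were at least 2-fold lower, which is 4 of 20 sterol genes and 2 of 10 fatty acid genes, against 2.5% of all genes. Fads2 and Acss2 read below the median in labelled Miz1 kd EGF and passed the level filter through Hmhi EGF alone. With the filter at the 75th percentile, which left 25 members, 4 were at least 2-fold lower. The share of all genes past 2-fold was not counted with that filter. None of the 30 was at least 2-fold higher, against 0.29% of all genes. Scd1 at -0.97 and Sc5d at -0.97 lay just outside the threshold.

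The sterol median of -0.52 and the fatty acid median of -0.39 differed by -0.13, sterol minus fatty acid. That gap was -0.38 with the filter raised to the 75th percentile, and its sign turned to 0.10 with plain _at sets and to 0.71 with the second highest probe set. All 8 genes between lanosterol and cholesterol were lower by more than the technical SD of 0.22, against 2622 of all 11394 genes. Their median was -0.69, where the median of all genes was 0.018. In the fatty acid branch 5 of 10 genes lay beyond the technical SD, a share near that of all genes, 5085 of 11394. Those beyond it, Fads2, Acss2, Scd1, Elovl6 and Scd2, were all lower, against 2622 of all genes lower by that much. Acly, Acaca, Fasn, Fads1 and Srebf1 lay within it, although the second Fads1 probe set gave 0.51. Neither Srebf1, at 0.03, nor Srebf2, at -0.03, differed beyond the technical SD. Because Zbtb17 was higher by 0.35 on this array, the directions are those of the array as labelled.

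The third pair, MYC-TA EGF and Hmhi EGF, shows how these genes stood in cells with MYC-TA. Fads2 was the 1 member at least 2-fold higher, against 1.3% of all 11534 genes, and 0 of 30 were at least 2-fold lower, against 1.65% of all genes. By sign, 16 of 20 sterol genes were lower, where 44.7% of all genes were lower and 55.1% higher. Of the 20, 12 were lower by more than the technical SD of 0.25, against 2367 of all 11534 genes. The 12 were Fdps, the squalene genes Fdft1, Sqle and Lss, the later genes Cyp51, Tm7sf2, Msmo1, Nsdhl and Dhcr7, and Insig1, Srebf2 and Stard4. Lss at -0.26 lay at the edge of the technical SD, and its other set past the filter gave -0.47. Srebf2 was at -0.84 on the probe set used and at -0.03, within the technical SD, on its other set. The mevalonate genes, Fdps among them, had a median of -0.06, with 3 of 6 higher and 3 lower. Hmgcs1, Mvd and Idi1 lay between 0.01 and 0.13, while Mvk was at -0.135, Pmvk at -0.132 and Fdps at -0.52. The second Idi1 probe set gave -0.15.

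In the fatty acid branch 5 genes were higher and 5 lower in MYC-TA EGF. Of the 10, 5 lay beyond the technical SD, a share near that of all genes, 5406 of 11534. Fads2 at 1.20 and Elovl6 at 0.44 were higher, and Fasn at -0.64, Srebf1 at -0.42 and Scd2 at -0.26 were lower. Scd2 lay at the edge of the technical SD of 0.25, and its other probe sets gave -0.17 and 0.05. The branch medians differed by -0.47, sterol minus fatty acid, where the median of all genes was 0.045. The gap became -0.17 when probe sets were averaged and -0.14 with the second highest set. Of the 6 fibroblast markers, Col3a1 read 9.69 in MYC-TA EGF, 6.25 in labelled Miz1 kd EGF, 7.21 in Hmhi EGF and 6.59 in Hmhi starved. Dcn read 11.56 in MYC-TA EGF, 9.45 in labelled Miz1 kd EGF, 10.35 in Hmhi EGF and 11.50 in Hmhi starved. Both were high in MYC-TA EGF, but Pdgfra read 7.93 in MYC-TA EGF, 8.24 in labelled Miz1 kd EGF, 8.21 in Hmhi EGF and 7.40 in Hmhi starved. Col1a2 differed by 0.18 for MYC-TA EGF minus Hmhi EGF, and Col1a1 and Lum were below the median on all 4 arrays. The summed level of the 6 markers was 47.0 in MYC-TA EGF, 41.5 in labelled Miz1 kd EGF, 43.4 in Hmhi EGF and 43.6 in Hmhi starved, and their part in any of the differences described here was not tested. This pair of arrays, the pair above and the pair with Hmhi starved share Hmhi EGF, so a deviation of that 1 array enters each of them. It enters the pair with Hmhi starved with the opposite sign, so higher there and lower here or above are not independent results.

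MYC-TA EGF and labelled Miz1 kd EGF were also set against each other, a pair without the Hmhi EGF array. Fads2, Elovl6, Idi1, Acss2, Hmgcs1 and Scd1 passed 2-fold toward MYC-TA EGF, which is 2 of 20 sterol genes and 4 of 10 fatty acid genes, against 6.72% of all 11613 genes. None was at least 2-fold lower on the probe set used, against 4.26% of all genes. The second, dimmer Fads1 probe set was 2.40-fold lower in MYC-TA EGF than in labelled Miz1 kd EGF. Elovl6 was 2.58-fold higher. Fads2 was higher by 4.88 on the probe set used and by 2.73 and 3.37 on its other sets, and all 3 sets read below the median in labelled Miz1 kd EGF, so that background limits these sizes. Acss2 also read below the median there, and both genes passed the level filter through MYC-TA EGF alone. With the filter at the 75th percentile, which left 25 members, 4 were at least 2-fold higher. Here too the share of all genes was not counted with that filter. By sign, 12 of 20 sterol and 7 of 10 fatty acid genes were higher in MYC-TA EGF, where 53.1% of all genes were higher and 46.8% lower. The sterol median was 0.14 and the fatty acid median 0.26, a gap of -0.11 that was -0.67 with the second highest probe set, and the median of all genes was 0.039.

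Sterol genes divided by step in this pair. All 6 mevalonate genes were higher in MYC-TA EGF, from 0.002 for Mvk, whose other probe set gave -0.21, to 1.21 for Idi1, but 2 of the 6, Hmgcs1 and Idi1, lay beyond the technical SD of 0.41. Of the 8 genes between lanosterol and cholesterol 5 were higher and 3 lower, with 3 beyond the technical SD, all higher. The 3 squalene genes were lower, at -0.47 for Fdft1, -0.54 for Sqle and -0.42 for Lss, all beyond the technical SD. Of all 11613 genes, 2929 were higher and 2263 lower by more than this SD. Srebf2 at -0.81 and Srebf1 at -0.45 were lower in MYC-TA EGF than in labelled Miz1 kd EGF, although the second Srebf2 probe set gave 0.02.

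Where a member had several probe sets past the level filter, they mostly agreed in sign. For Hmhi EGF minus Hmhi starved 17 of 18 such genes had the same sign on all sets, the exception being Sc5d at -0.15 and 0.39. For labelled Miz1 kd EGF minus Hmhi EGF 16 of 18 did, the exceptions being Mvk and Fads1. For MYC-TA EGF minus Hmhi EGF 10 of 18 did, the exceptions being Acly, Acss2, Fads1, Hmgcs1, Hsd17b7, Idi1, Sc5d and Scd2. There Acss2 gave 0.11 and -0.28, Idi1 0.05 and -0.15, and the sets of Hmgcs1 lay between -0.02 and 0.06. Hsd17b7 was at -0.10 on the probe set used and at 0.06 and 0.27 on its other sets past the filter. Scd1 kept its sign but gave 0.04 and 0.67. In the pair without Hmhi EGF 13 of 17 did, the exceptions being Fads1, Mvk, Srebf2 and Stard4. Sets of 1 sign could also differ in size, as for Lss with EGF, from -1.08 to -0.37. Hsd17b7 was lower in Hmhi EGF than in Hmhi starved on 3 of 3 sets, from -1.91 to -1.05, and Elovl6 was higher on both of its sets that passed.

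**Figure D5:**
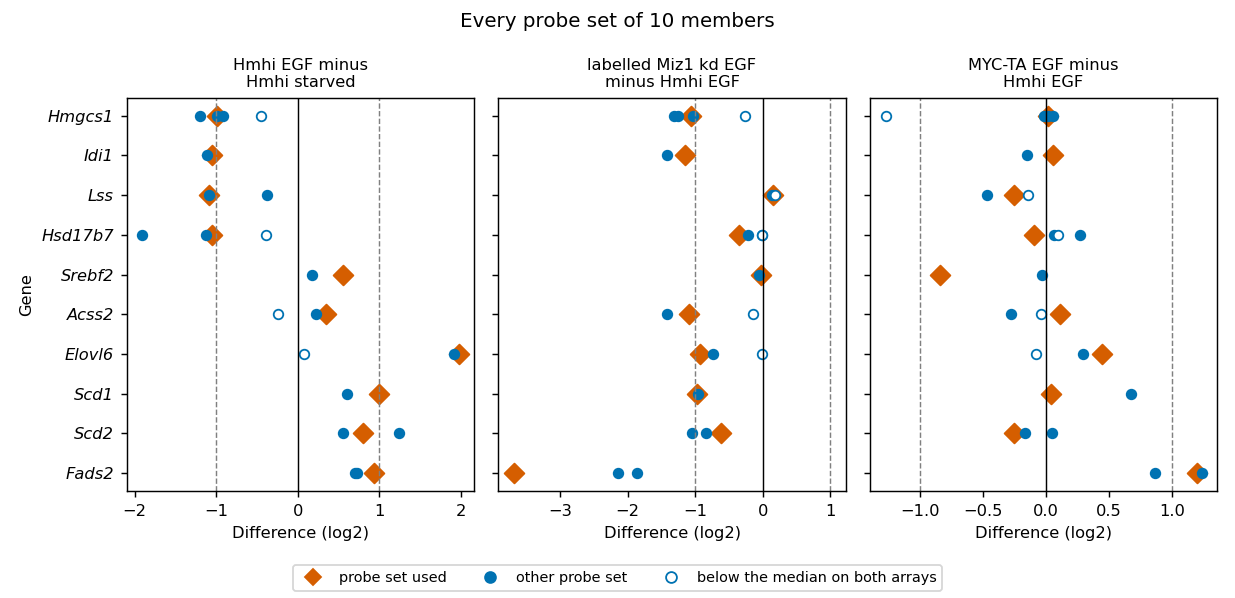
Difference on the log2 scale of every probe set of 10 members for 3 pairs of arrays. Diamonds are the probe sets used, filled circles other sets, and open circles sets below the median on both arrays. The 3 Fads2 sets lie at -3.69, -2.14 and -1.86 for labelled Miz1 kd EGF minus Hmhi EGF, and the 2 Srebf2 sets at -0.84 and -0.03 for MYC-TA EGF minus Hmhi EGF.

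Of 24 further genes of lipid synthesis and its control, 22 had a probe set and 21 passed the level filter in each pair of arrays. With EGF 6 of 21 passed 2-fold upward and 0 downward, against 7.98% and 4.96% of all genes. The 6 were Elovl5, an elongase of polyunsaturated chains, at 2.13, Lbr, the second sterol C14 reductase, at 1.99, and the triglyceride synthesis enzymes Dgat2 and Dgat1 at 1.88 and 1.31, with Mylip, a ubiquitin ligase of lipoprotein receptors, at 1.21 and Scap, the SREBP escort protein, at 1.15. Lbr, whose activity overlaps that of Tm7sf2, was higher with EGF as Tm7sf2 was. The other SREBP control genes read 0.60 for Mbtps1, -0.02 for Mbtps2 and -0.55 for Insig2.

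In labelled Miz1 kd EGF 1 of the 21 further genes was at least 2-fold lower than in Hmhi EGF, Dgat2 at -1.06, against 2.5% of all genes, and 18 of 21 were lower by sign, against 47.5%. The 30 members had a median of -0.52 there, against -0.14 for the further genes. In MYC-TA EGF 0 of 21 were 2-fold higher or lower than in Hmhi EGF, against 1.3% and 1.65% of all genes. Between MYC-TA EGF and labelled Miz1 kd EGF, Dgat2 at 1.53 and Gpam, which starts glycerolipid synthesis, at 1.18 passed 2-fold, against 6.72% of all genes.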

How the data were processed

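The deposited table held log2 signals for 45101 probe sets on 4 Affymetrix arrays. The authors' log base, summarization and normalization are not given in the sources used here, and base 2 was taken from the range of the values. The deposited columns matched within 0.004 when sorted, so they had already been normalized to each other and a global shift would not show. Per the labels, 100 ng of total RNA was turned into biotinylated cRNA. The number of arrays limits the precision.

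By the 2016 platform annotation, 34945 probe sets had a single gene symbol, 932 had more, 64 were controls and 9160 are unnamed here. All 30 member identifiers matched RefSeq and 0 symbols changed. The level filter kept a gene where the brighter array of the pair reached the median of its non-control sets. With 1 array per group no test was run. Genes at least 2-fold apart were counted, and all members were named, with Zbtb17 and Myc as a check of the labels. The members and lists were chosen with earlier results of these data known. The fibroblast, keratinocyte and macrophage lists had 2 of 6, 2 of 4 and 1 of 4 measured genes at or above the median on all arrays. Promoter motifs were searched on both strands. Alternatives changed the normalization, the filter or the probe set. The steps were tested on simulated data. Python 3.11.15, pandas 2.3.3, numpy 2.4.6, statsmodels 0.14.6 and matplotlib 3.10.9 were used.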

Additional observations from a re-analysis of the deposited data

How the results depend on the processing

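No paired analysis was possible because there was 1 array per condition, which also meant that none could be left out. A common median, quantile normalization, loess with span 0.4 and no level filter moved no branch median or gap by more than the technical SD and no count of members by more than 1.5 times. The columns already matched within 0.004 when sorted, and all 30 members already passed the filter in each pair. A common median, quantile normalization and no filter could therefore hardly move a member, so their outcome is no evidence of stability. The gap between the branches with EGF and the fatty acid median there stayed within the technical SD under all 8 alternatives. The cause of the following shifts was not tested. With the second highest probe set, which left 18 members past the filter (11 sterol and 7 fatty acid genes, and 17 in the pair without Hmhi EGF) in place of 30, the sterol median was -0.77 for Hmhi EGF minus Hmhi starved, -0.25 for labelled Miz1 kd EGF minus Hmhi EGF and -0.10 for MYC-TA EGF minus Hmhi EGF. The fatty acid median was then -0.96 for labelled Miz1 kd EGF, 0.048 for MYC-TA EGF, which turned its sign, and 0.95 for MYC-TA EGF minus labelled Miz1 kd EGF. The gap of sterol minus fatty acid turned to 0.71 for labelled Miz1 kd EGF, and was -0.14 for MYC-TA EGF and -0.67 between these arrays. Of these fewer members 2 were at least 2-fold higher with EGF, 0 were higher in MYC-TA EGF than in Hmhi EGF, and 1 was lower in MYC-TA EGF than in labelled Miz1 kd EGF. The share of all genes past 2-fold was not counted under the alternatives, so counts of members there have no share to be set against. With plain _at sets the fatty acid median was -0.62 for labelled Miz1 kd EGF minus Hmhi EGF, where the gap turned to 0.10, and 0.042, with the sign turned, for MYC-TA EGF minus Hmhi EGF. With the mean of all probe sets it was -0.12 for labelled Miz1 kd EGF minus Hmhi EGF, the gap for MYC-TA EGF minus Hmhi EGF was -0.17, and 3 members passed 2-fold upward in MYC-TA EGF against labelled Miz1 kd EGF. With a level filter at the 75th percentile the fatty acid median for labelled Miz1 kd EGF minus Hmhi EGF was -0.16 and the gap -0.38. Of 877 values of single members under these alternatives, 834 moved by at most the technical SD, 43 by more, and 0 of those at least 2-fold apart changed sign. The 877 include 120 values each from the common median, quantile normalization and no filter, which could hardly move. They also include 102 from the raised filter, which leaves the value of a kept member unchanged.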
